A study of Rattus norvegicus with 6 samples.

Results

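The amino acid transporters described here are 10 genes of the SLC1, SLC3, SLC6, SLC7 and SLC38 carrier families, namely Slc7a11, Slc7a5, Slc7a1, Slc7a6, Slc3a2, Slc6a9, Slc1a4, Slc1a5, Slc38a1 and Slc38a2. They were taken by name from a table of 26126 entries. All 10 had counts in every library and passed the filter on low counts, which left 14488 entries for testing. RNA sequencing was done on H9c2 cells, a myoblast line derived from embryonic rat heart. All cells went through simulated ischemia-reperfusion, in a buffer of pH 6.2 with 2-deoxyglucose and lactate under 95% nitrogen and 5% carbon dioxide, in a chamber then sealed for 1.5 to 3.5 h. A gas flush of 30 min and 10% serum are also given for all 6 libraries. The control group is 3 libraries with a control adenovirus, and the adPERK group is 3 libraries with an adenovirus for PERK. The labels give no cells without the ischemic treatment, so each comparison is between treated cells, and they do not say whether replicates are separate cultures. The p-values therefore reflect library-to-library spread alone, and that spread may be technical.

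PERK, encoded by Eif2ak3, is a kinase of the endoplasmic reticulum that phosphorylates eIF2 alpha. General translation then falls while translation of the transcription factor ATF4 rises. ATF4 binds composite C/EBP-ATF elements and raises genes for amino acid synthesis and import, which is why carriers such as Slc7a11 and Slc7a5 are commonly read as markers of this stress response. Amino acid carriers help set a cell's cystine for glutathione, and its leucine and arginine, which act on the growth kinase mTORC1 through sensors.

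Total counts ranged from 77923398 to 119087414 per library. Low counts clustered at a spacing of 6, so a count may stand for fewer independent fragments than its value, by an unknown factor. In adPERK replicate 1 the strongest repeat was at 12, a multiple of 6, which does not show a different spacing in that library. Control replicate 3 stood apart, with 45.4% of olfactory receptor genes above 0 against 6.24% to 14.5% in the other libraries. Of 12 markers of H9c2 myoblasts 11 were tested, with Myf5 at 0 in every library, and the myogenic factor Myog fell from 486 ± 10.2 to 400 ± 9.25 CPM (counts scaled to a common library total; SD, n = 3; edgeR adjusted p = 0.0137). Of the 11, 6 lay above 0 and 5 below, and the summed level of the list was 2961 to 3080 CPM in control and 3190 to 3264 CPM in adPERK libraries. Vim, the most abundant of them, stood at 1653 ± 33.0 and 1882 ± 49.2 CPM (SD, n = 3; edgeR adjusted p = 0.0677), without overlap between groups, and DESeq2 called it higher. Summed over a list, endothelial markers stood at 1.36 to 2.14 CPM in control and 0.638 to 1.33 CPM in adPERK libraries, leukocyte markers at 8.54 to 12.4 and 9.97 to 11.0 CPM, and epithelial markers at 48.7 to 52.8 and 53.2 to 54.2 CPM. Tested markers numbered 1 of 7, 3 of 9 and 3 of 7 in these lists, none of them called by edgeR. Krt8 made up most of the epithelial total, its group means being 39.4 (control) and 41.3 CPM (adPERK), and its groups did not overlap. Krt7 followed (11.71 and 12.25 CPM). Cd14 made up most of the leukocyte total (9.17 and 9.22 CPM). Tek did so for the endothelial total (1.40 and 0.792 CPM), and its groups did not overlap. Lyz2 and Krt19 were at 0 in every library. Cdh5 was above 0 only in control replicate 3 (22 counts) and Ptprc only in control replicates 2 and 3 (17 and 5 counts). Cd3e was above 0 only in control replicates 1 to 3 (13, 7 and 5 counts) and, like Cdh5 and Ptprc, was not tested. Emcn was above 0 only in adPERK replicate 2 (7 counts). The part of Myog and of these lists in the results below was not tested. Eif2ak3, the gene the adenovirus should raise, gave 26.4, 26.9 and 24.0 CPM in the controls, by replicate number, and 26.5, 26.5 and 25.9 CPM in the adPERK group. It did not separate the groups. Whether this count would include the RNA of the viral gene was not tested, so every direction below rests on the labels, and the treated libraries are called adPERK-labelled.

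All 10 transporters had a log2 fold change above 0 in the adPERK-labelled libraries, and none passed the test. The log2 fold changes ran from 0.025 for Slc7a6 to 0.22 for Slc7a5, with a median of 0.11. Over all 14488 tested entries the median was -0.0045, and 48.7% lay above 0. With edgeR's quasi-likelihood test, adjusted by Benjamini-Hochberg over all tested entries, 0 of 10 members were called, where 0.311% of tested entries were called higher. The adjusted p-values of the members ran from 0.12 to 0.922. An unadjusted p under 0.05 was found for 5 of 10 members, all higher, against 5.94% of tested entries. For 4 of 10 members every adPERK-labelled library lay above every control library, against 9.66% of tested entries. DESeq2 called 3 members higher, Slc7a5, Slc1a4 and Slc3a2, where it called 1.42% of its tested entries higher. The DESeq2 adjusted p-values were 0.000256, 0.000621 and 0.0495, the last just under the cut of 0.05. Limma voom called 0 members, with 0.573% of entries called higher, and edgeR's robust fit called Slc7a5 and Slc1a4, with 0.649% of entries called higher. These shares are descriptions, since the members were chosen with earlier results of these data known.

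**Figure D1:**
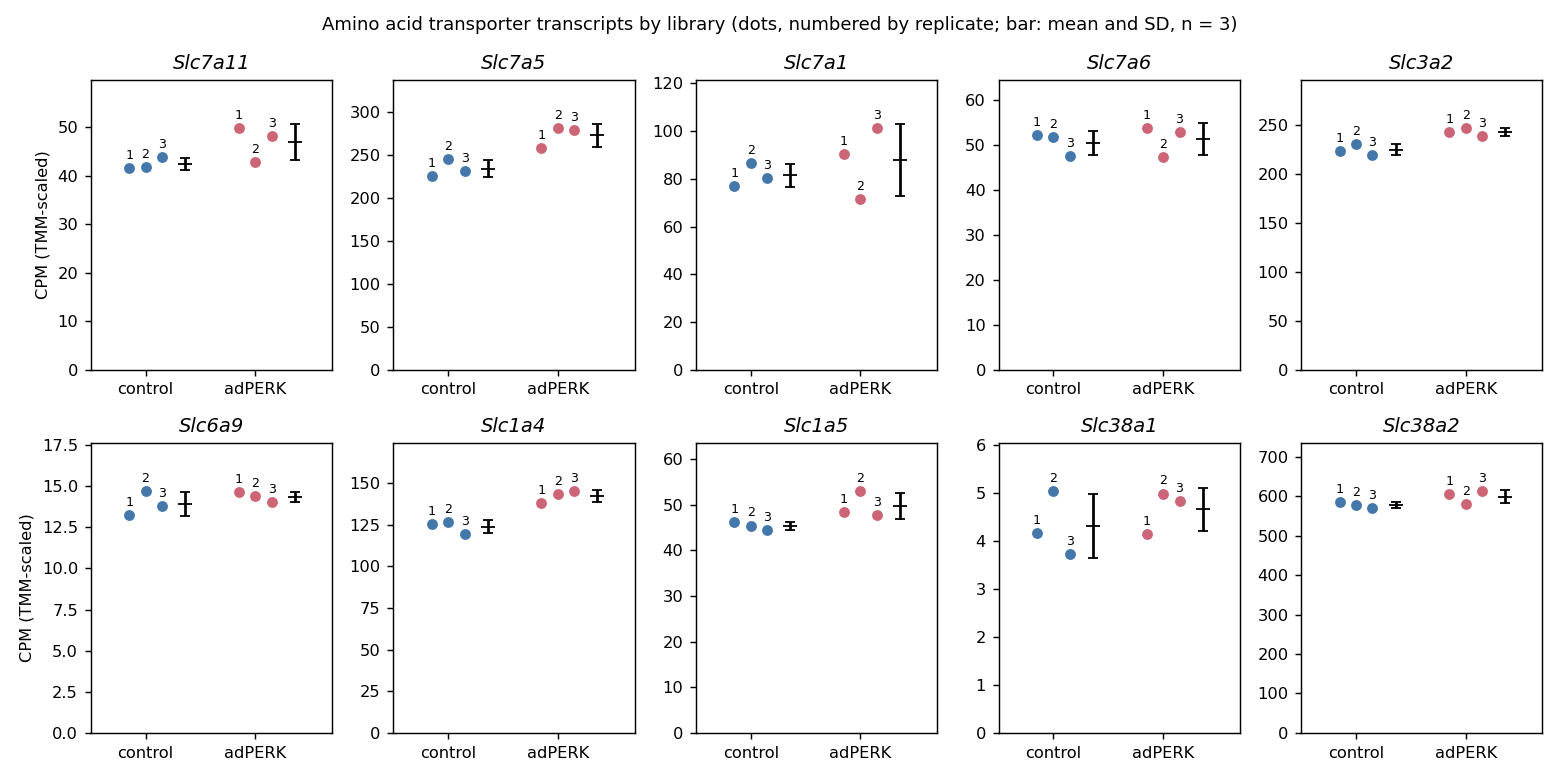
Level of each transporter in the 6 libraries, in TMM-scaled CPM on axes that start at 0; dots are libraries numbered by replicate and the black bar is mean and SD (n = 3). Groups do not overlap for Slc7a5, Slc3a2, Slc1a4 and Slc1a5, and for the other 6 genes they do.

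Promoter windows from RefSeq were found for 9 of the 10 genes, with 2 windows for Slc3a2 and none for Slc1a5. Each window runs from 250 bases before to 50 bases after the start of the gene. The core of the C/EBP-ATF element was searched as TGATGNAA on both strands, where N is any base, and it occurred in 3.98% of 33469 windows. It occurred in 3 of the 10 windows of the transporters, those of Slc1a4, Slc38a1 and Slc7a1. The match began 235 bases before the start in Slc1a4, on the opposite strand as TTGCATCA, 142 bases before it in Slc38a1 and 30 bases before it in Slc7a1. The core of the antioxidant response element, which NRF2 binds, was searched as TGACNNNGC on both strands and occurred in 12.1% of all windows and in 3 of the 10, those of Slc7a1, Slc38a2 and 1 of Slc3a2. The 3 windows with the first core are printed below, and with them that of Slc7a5, which holds neither core and had the largest log2 fold change. Capitals mark the C/EBP-ATF core, and letters run 5′ to 3′ along the strand of the gene in build GRCr8.
Slc1a4, chr14:98761513-98761812, minus strand: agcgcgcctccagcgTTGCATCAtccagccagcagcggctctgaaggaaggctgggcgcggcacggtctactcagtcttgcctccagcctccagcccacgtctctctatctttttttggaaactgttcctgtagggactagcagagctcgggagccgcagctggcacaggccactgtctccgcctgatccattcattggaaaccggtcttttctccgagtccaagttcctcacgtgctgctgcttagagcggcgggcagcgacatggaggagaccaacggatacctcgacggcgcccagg
Slc38a1, chr7:129681352-129681651, minus strand: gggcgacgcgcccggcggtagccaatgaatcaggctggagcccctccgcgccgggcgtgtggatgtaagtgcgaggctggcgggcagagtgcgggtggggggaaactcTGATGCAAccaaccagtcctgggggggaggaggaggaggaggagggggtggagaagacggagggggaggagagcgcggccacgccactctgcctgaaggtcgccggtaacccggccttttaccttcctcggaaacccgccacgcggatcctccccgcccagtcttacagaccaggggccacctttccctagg
Slc7a1, chr12:11664238-11664537, plus strand: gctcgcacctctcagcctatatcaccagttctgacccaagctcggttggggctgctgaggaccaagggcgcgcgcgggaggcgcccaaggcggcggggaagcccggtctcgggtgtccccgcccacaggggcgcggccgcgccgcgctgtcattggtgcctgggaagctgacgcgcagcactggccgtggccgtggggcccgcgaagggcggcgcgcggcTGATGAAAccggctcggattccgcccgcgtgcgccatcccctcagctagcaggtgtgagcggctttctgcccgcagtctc
Slc7a5, chr19:66872363-66872662, minus strand: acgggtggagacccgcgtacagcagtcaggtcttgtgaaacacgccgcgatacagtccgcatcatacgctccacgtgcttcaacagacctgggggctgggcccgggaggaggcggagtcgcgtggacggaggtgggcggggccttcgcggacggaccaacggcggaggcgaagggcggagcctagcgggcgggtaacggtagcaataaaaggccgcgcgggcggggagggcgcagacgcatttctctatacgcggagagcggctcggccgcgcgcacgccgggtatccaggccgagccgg
Of the 3 genes with the core, Slc1a4 had non-overlapping groups and Slc38a1 and Slc7a1 had not. Without the core in their windows, Slc7a5 and Slc3a2 had non-overlapping groups and Slc7a11, Slc7a6, Slc6a9 and Slc38a2 had not. Slc1a5, which has no window, had non-overlapping groups. Such a separation upward was found for 9.66% of tested entries. A match in these letters is a description and does not show binding.

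Slc3a2 encodes the heavy chain 4F2hc (CD98), which brings several SLC7 light chains to the plasma membrane. By replicate number from 1 to 3, the controls gave 224, 231 and 220 CPM and the adPERK-labelled libraries 243, 247 and 239 CPM. The lowest adPERK-labelled library thus lay above the highest control library. EdgeR gave a log2 fold change of 0.11 with SE 0.03 and adjusted p = 0.225. Slc3a2 was among the steadiest members, with a coefficient of variation of 2.43% in control and 1.62% in adPERK-labelled libraries.

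Slc7a5 encodes LAT1, the light chain that exchanges glutamine for leucine and other large neutral amino acids. Control replicates 1 to 3 gave 225, 245 and 232 CPM, and adPERK replicates 1 to 3 gave 258, 281 and 279 CPM. All 3 adPERK-labelled libraries were above the controls, replicate 1 by the smallest margin. Their log2 fold change of 0.22 (SE 0.05, 95% interval 0.12 to 0.33, edgeR adjusted p = 0.12) is a ratio of 1.17. That was the largest fold change of the 10, and by unadjusted p the gene ranked 151 among the 14488 tested entries.

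Slc7a11 encodes xCT, the light chain that imports cystine in exchange for glutamate and so feeds glutathione synthesis. Its values were 41.5, 41.8 and 43.8 CPM in the controls and 49.8, 42.9 and 48.2 CPM in adPERK replicates 1 to 3. The groups overlapped because adPERK replicate 2 lay below control replicate 3. Slc7a11 had a log2 fold change of 0.15 (SE 0.06, 95% interval 0.0089 to 0.29, edgeR adjusted p = 0.405). It was 0.21 without adPERK replicate 2 and 0.10 without adPERK replicate 1, not called in either fit. Slc7a6 encodes a light chain that exchanges cationic for neutral amino acids. The controls gave 52.1, 51.7 and 47.5 CPM and adPERK replicates 1 to 3 gave 53.8, 47.3 and 53.0 CPM, with overlapping groups. Its log2 fold change of 0.025 (SE 0.06, 95% interval -0.12 to 0.17) was the smallest of the 10, and it was -0.016 without control replicate 3 and -0.0077 without adPERK replicate 1.

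Ratios of each light chain to the shared heavy chain were compared within libraries, where scaling cancels. The log2 ratio of Slc7a5 to Slc3a2 CPM was 0.06 ± 0.04 in control and 0.17 ± 0.07 in adPERK-labelled libraries (SD, n = 3). The difference was 0.11, for which a two-sided exact permutation test gave p = 0.2. For Slc7a11 to Slc3a2 the log2 ratio was -2.41 ± 0.07 and -2.37 ± 0.13 (exact permutation p = 0.8). For Slc7a6 to Slc3a2 it was -2.16 ± 0.06 and -2.25 ± 0.12 (exact permutation p = 0.4). With 3 against 3 libraries this test cannot go below 0.1, and over the 5 ratios compared the adjusted p was 0.667 to 0.8.

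Slc1a4 encodes ASCT1, an exchanger of serine, alanine and cysteine. The 3 controls held 125, 127 and 120 CPM, by replicate number, and the 3 adPERK-labelled libraries 138, 143 and 145 CPM. Every adPERK-labelled library was above every control, and the spread within each group was small, with coefficients of variation of 3.02% and 2.56%. For Slc1a4 the log2 fold change was 0.20 (SE 0.04, 95% interval 0.10 to 0.29, edgeR adjusted p = 0.121) and lay between 0.17 and 0.22 whichever library was left out. Slc1a5 encodes ASCT2, the main glutamine exchanger of many dividing cells. The controls gave 46.3, 45.5 and 44.6 CPM, against 48.5, 53.0 and 47.9 CPM in adPERK replicates 1 to 3. The groups did not overlap, and adPERK replicate 2 was the highest. Slc1a5 had a log2 fold change of 0.13 (SE 0.05, edgeR adjusted p = 0.37), and of 0.08 without adPERK replicate 2. The log2 ratio of Slc1a4 to Slc1a5 was 1.45 ± 0.03 in control and 1.51 ± 0.08 in adPERK-labelled libraries (SD, n = 3; exact permutation p = 0.3).

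**Figure D2:**
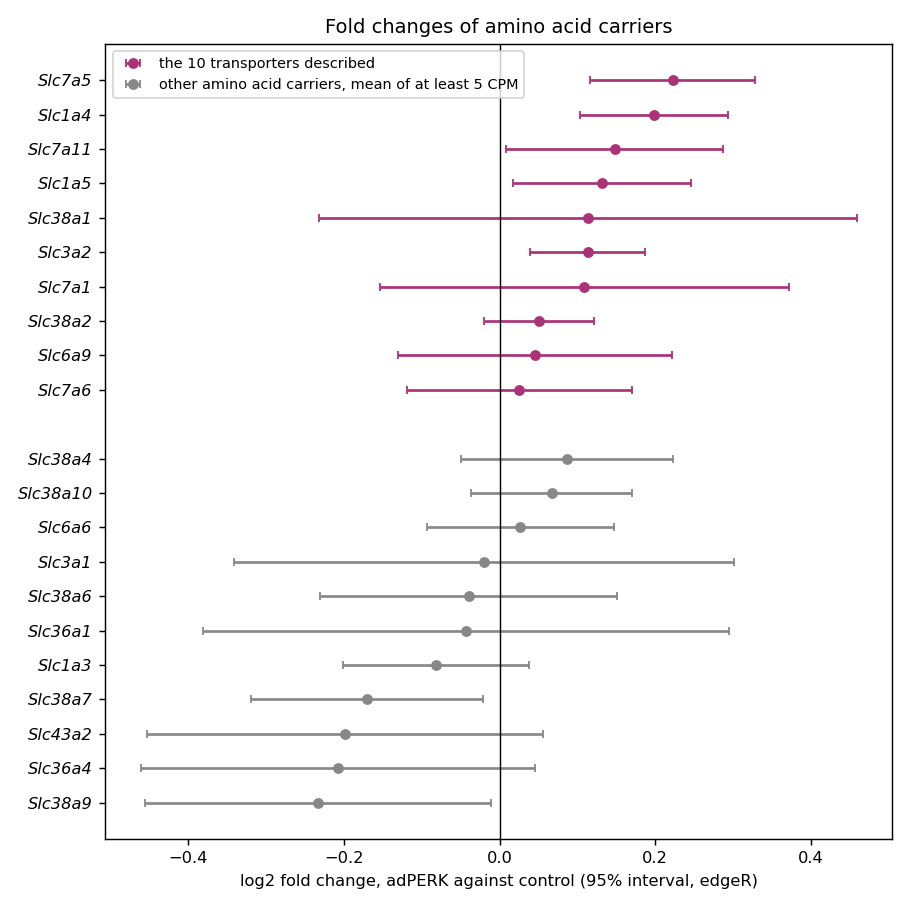
Log2 fold change of adPERK-labelled against control libraries with its 95% interval (edgeR), for the 10 transporters and for the other amino acid carriers with a mean of at least 5 CPM. The intervals of Slc7a5, Slc1a4, Slc7a11, Slc1a5 and Slc3a2 lie above 0 before adjustment over all entries, and those of the other 5 transporters include 0.

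Slc38a2 encodes SNAT2, the sodium-coupled importer of small neutral amino acids that cells induce on amino acid starvation. It held 44507 to 69494 counts per library. The controls gave 587, 579 and 571 CPM, by replicate number, and the adPERK-labelled libraries 606, 581 and 613 CPM. The groups overlapped, with adPERK replicate 2 inside the range of the controls. The fold change on the log2 scale was 0.051 (SE 0.031, edgeR adjusted p = 0.582), and its 95% interval from -0.02 to 0.12 was the narrowest of the 10. Slc38a1 encodes the related importer SNAT1 and had the fewest counts, 290 to 597 per library. By replicate number the controls held 4.16, 5.03 and 3.72 CPM and the adPERK-labelled libraries 4.15, 4.99 and 4.84 CPM, and control replicate 2 was the highest of all 6. The interval of its log2 fold change of 0.11 ran from -0.23 to 0.46, which includes both 0 and the 0.22 seen for Slc7a5. The coefficient of variation was 15.5% in control and 9.59% in adPERK-labelled libraries, where counting error alone gives 4.80%, or 11.8% if 6 counts stand for 1 fragment. The log2 ratio of Slc38a1 to Slc38a2 was -7.08 ± 0.21 and -7.01 ± 0.17 (exact permutation p = 0.8).

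Slc7a1 encodes CAT1, the importer of arginine and lysine. Control replicates 1 to 3 held 77.1, 86.7 and 80.4 CPM, and adPERK replicates 1 to 3 held 90.5, 71.7 and 101 CPM. The adPERK-labelled libraries spanned the controls, with replicate 2 the lowest and replicate 3 the highest of all 6 libraries. Their coefficient of variation was 17.1%, the highest of any member in either group, against 5.95% in control. Counting error alone gives 1.11%, or 2.72% if 6 counts stand for 1 fragment. The log2 fold change of 0.11 (SE 0.11, edgeR adjusted p = 0.786) was -0.0048 without adPERK replicate 3 and 0.24 without adPERK replicate 2. Slc6a9 encodes the glycine transporter GlyT1. The controls gave 13.2, 14.7 and 13.8 CPM and the adPERK-labelled libraries 14.6, 14.4 and 14.0 CPM, with control replicate 2 the highest. Slc6a9 had a log2 fold change of 0.045 (SE 0.077, 95% interval -0.13 to 0.22). Slc6a9 overlaps Ccdc24 in the RefSeq annotation, and no source used here says whether the counting used strand, so reads of the pair may be shared. None of the other 9 overlaps a gene there.

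Across libraries the members did not move as 1 block. In adPERK replicate 3 all 10 lay above their control mean, in adPERK replicate 1 the count was 9 and in adPERK replicate 2 it was 8, with Slc7a1 and Slc7a6 below. In control replicates 1 to 3 the counts were 4, 8 and 1, and the median deviations were -0.02, 0.04 and -0.02 on the log2 scale. The median deviations in adPERK replicates 1 to 3 were 0.10, 0.09 and 0.13. In adPERK replicate 2, Slc7a5, Slc1a4, Slc1a5 and Slc38a1 were 0.21 to 0.27 above their control means, while Slc38a2 and Slc7a11 were 0.0040 and 0.02 above.

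**Figure D3:**
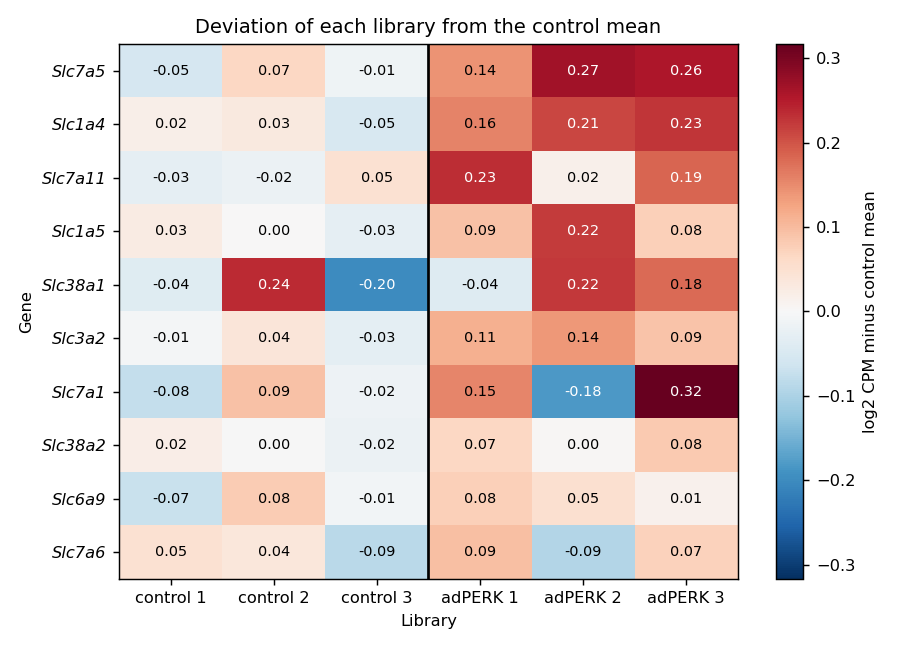
Log2 CPM of each transporter (lines) in each library (columns) minus the mean log2 CPM of the 3 control libraries, ordered by fold change. Slc7a5 and Slc1a4 are 0.14 or more above the control mean in each adPERK-labelled library, and Slc7a1 goes from -0.18 in replicate 2 to 0.32 in replicate 3.

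Leaving out 1 library kept 8 members above 0 in every fit, while Slc7a6 lay below 0 in 2 fits and Slc7a1 in 1. The median of the 10 log2 fold changes ran from 0.09 without adPERK replicate 2 to 0.13 without control replicate 2, and was 0.10 without control replicate 3. No member was called in any of these 6 fits, which have less power than the fit on all libraries.

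**Figure D4:**
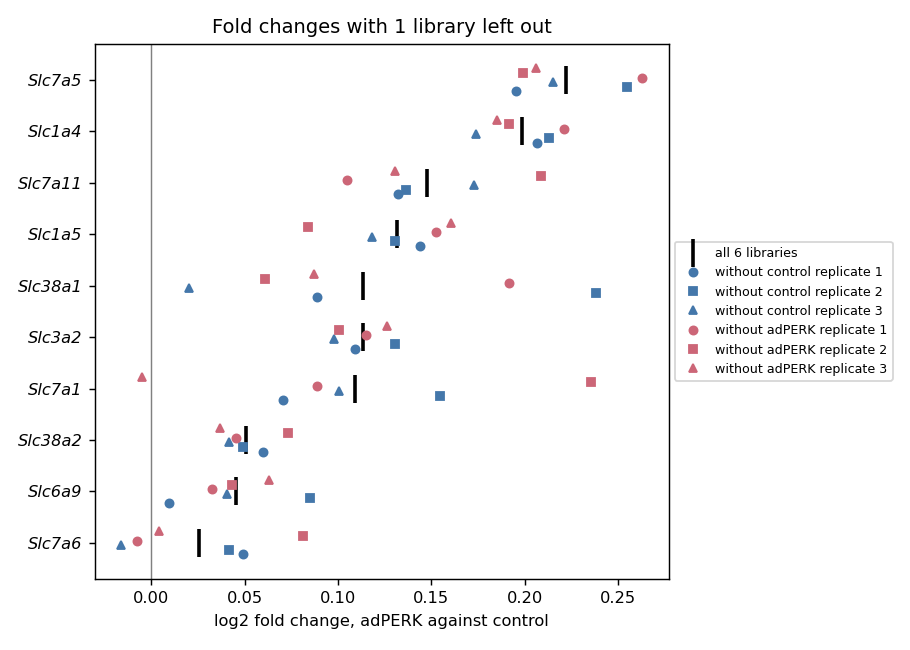
Log2 fold change of each transporter with all 6 libraries (black line) and with each library left out (blue without a control, red without an adPERK library). Slc7a5, Slc1a4, Slc7a11, Slc1a5 and Slc3a2 stay above 0.08 in all 6 fits.

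The authors' deposited table, which rests on the same counts, gave log2 fold changes from 0.029 for Slc7a6 to 0.23 for Slc7a5. In the authors' deposited table the lowest adjusted p-values of the 10 were 0.0623 for Slc7a5, 0.16 for Slc1a4 and 0.357 for Slc3a2. No member passed 0.05 there, where 2.27% of the entries with an adjusted p did.

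Other amino acid carriers of the cell surface and of organelles were listed for comparison. Of 37 such genes, 36 were in the table and 19 were tested. None was called by edgeR or DESeq2, and an unadjusted p under 0.05 was found for 0 higher and 2 lower genes. Over all 14488 tested entries, 861 were higher and 766 lower at that unadjusted cut in edgeR. Of the 19, 5 lay above 0 and 14 below, and the median log2 fold change was -0.08. Among all tested entries, 7061 lay above 0 and 7427 below. The counts of the 19 include genes near the floor. Below 0 these were Slc6a5 (-1.55, SE 1.64), Slc7a8 (-0.57, SE 1.59), Slc38a3 (-0.32, SE 0.65) and Slc1a7 (-0.10, SE 1.63). Slc6a5 and Slc7a8 were highest in control replicate 3, at 51 and 30 counts. Above 0, Slc7a9 was also low, at 0.908 and 1.125 CPM (log2 fold change 0.30, SE 0.36). The most abundant by CPM were Slc6a6, the taurine transporter, at 135 ± 4.84 CPM in control and 137 ± 7.94 CPM in adPERK-labelled libraries (log2 fold change 0.03), and Slc38a10, at 118 ± 1.63 and 124 ± 5.68 CPM (log2 fold change 0.07). Whether the 10 differ from these carriers as a group was not tested.

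Genes that respond to amino acid shortage or to ATF4, other than transporters, formed another list. Of 28, 26 were tested. EdgeR called 2 higher, against 0.311% of tested entries, and none lower, against 0.11%. Of the 26, 20 lay above 0, against 48.7% of tested entries, and the median log2 fold change was 0.14. An unadjusted p under 0.05 was found for 13 of the 26, all higher, against 5.94% of tested entries, and for 13 of the 26 the groups did not overlap upward, against 9.66%. DESeq2 called 8 of them higher, against 1.42% of its tested entries. The 2 were Ppp1r15a, a regulatory subunit of the eIF2 alpha phosphatase, with a log2 fold change of 0.67 (edgeR adjusted p = 0.00204), and Stc2, a secreted stress glycoprotein, with 0.42 (edgeR adjusted p = 0.0217). Stc2 was called in 1 of the 6 fits with a library left out, that without adPERK replicate 3. For Atf4 the controls gave 413, 414 and 400 CPM, by replicate number, and the adPERK-labelled libraries 458, 461 and 432 CPM. Its groups did not overlap, and its log2 fold change of 0.14 did not pass edgeR's test (SE 0.04, edgeR adjusted p = 0.19), while DESeq2 called it higher (DESeq2 adjusted p = 0.0051). Its fold change lies between those of Slc7a11 and Slc1a5.

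Of 16 genes for glutathione, whose synthesis uses imported cystine, and for the NRF2 response, edgeR called none and DESeq2 called 2. The DESeq2 calls were Gss, higher, and Nqo1, lower, where DESeq2 called 226 of its 15911 tested entries higher and 131 lower. An unadjusted edgeR p under 0.05 was found for 2 higher genes and 1 lower gene. Among all 14488 tested entries it was found for 861 higher and 766 lower. Of the 16, 8 lay above 0 and 8 below, where 48.7% of tested entries lay above 0, and the median of the 16 was 0.0014. The most abundant were Prdx1, a peroxiredoxin, at 320 ± 15.2 and 328 ± 11.0 CPM, and Nqo1, a quinone reductase and NRF2 target, at 270 ± 8.80 and 241 ± 7.09 CPM (edgeR adjusted p = 0.156). For Nqo1 the groups did not overlap (DESeq2 adjusted p = 0.0023). Of 23 genes through which amino acids act on mTORC1, 20 were tested and none was called by edgeR or DESeq2, with an unadjusted p under 0.05 for 0 higher and 2 lower genes, 7 above 0, 13 below 0 and a median of -0.04. Sesn2, a leucine sensor that is also in the list of amino acid response genes, stood at 63.6 ± 4.60 and 61.3 ± 5.27 CPM. Mtor stood at 55.3 ± 5.74 and 54.2 ± 4.21 CPM.

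The genes whose pattern over the 6 libraries was most like the mean standardised profile of the 10 were Cltc, the clathrin heavy chain, Diaph3, a formin, and Msn, the membrane-cytoskeleton linker moesin. Pearson's r was 0.992, 0.991 and 0.989, the highest of 8868 genes with at least 5 CPM. With 6 libraries and that many genes such values describe a likeness of profiles only. EdgeR called none of them and DESeq2 called Msn (DESeq2 adjusted p = 0.00314), with log2 fold changes of 0.09, 0.15 and 0.12.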

How the data were processed

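The authors' deposited table gives whole-number counts per gene, and these were analysed. Alignment with Bowtie 0.12.2 and the build mm9 is named in the submitters' processing notes, although the entries are rat genes. No source used here names the counting program or annotation. The deposited normalized signal columns are named as normalized counts and were not used. The deposited log2 fold changes, test scores and adjusted p-values of the authors are printed only as theirs. Another table has 6 value columns that match no label and was not used.

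Counts were scaled by TMM, filtered with filterByExpr (minimum count 10) and fitted in edgeR 4.0.16 (R 4.3.3) with group as the only term (glmQLFit, glmQLFTest). P-values were adjusted by Benjamini-Hochberg over all tested entries at 0.05. Each SE was the log2 fold change divided by the root of F. CPM are not per length, so levels are not compared between genes. Limma 3.58.1 and DESeq2 1.42.0 were alternatives. Intervals cover the spread between libraries, and counting errors cover counting only.

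Members, lists and alternatives were chosen with earlier results of these data known. Named genes are the members, Eif2ak3 and Atf4, and up to 3 called genes of each list, or else its 2 most abundant; markers are given mainly as list totals. The steps were tested on simulated counts. RefSeq (GRCr8) gave promoters and neighbours.

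Pairing by replicate number was checked: the deviations of same-numbered libraries from their group means correlated at -0.06, 0.01 and 0.03. Those of differently numbered libraries correlated at -0.06 to 0.06. The check thus gave no sign of pairing by number, but with 3 libraries per group it cannot exclude that same-numbered libraries were prepared together.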

Additional observations from a re-analysis of the deposited data

How the results depend on the processing

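The count of called members, 0 with edgeR, was 3 with the DESeq2 test and 2 with the robust fit (Slc7a5, adjusted p = 0.0317, and Slc1a4, 0.0448), and it was 0 in the other 13 alternatives. The 61 calls over all entries became 357 with DESeq2, 110 with limma voom, 94 without a filter, 132 with the robust fit, 93 with counts divided by 6, and 12 to 38 with 1 library left out. With a replicate block they became 9, and 0 members were called. Calls among amino acid response genes, 2 in edgeR, became 8 with DESeq2, 4 with the robust fit, 1 with the replicate block and 1 to 2 with 1 library left out. For glutathione genes 0 became 2 with DESeq2 and 1 with the robust fit. The median log2 fold change of the 10 ran from 0.09 to 0.13 over all settings, and all 10 lay above 0 in 13 of 16. Signs turned for Slc7a6 (-0.016 without control replicate 3 to 0.081 without adPERK replicate 2) and Slc7a1 (-0.0048 without adPERK replicate 3 to 0.24 without adPERK replicate 2). The Slc7a11 to Slc3a2 ratio difference ran from -0.012 to 0.11 with 1 library left out, and that of Slc38a1 to Slc38a2 from -0.020 to 0.19. The causes were not tested. At 290 to 597 counts per library, Slc38a1 had a counting error of 4.80%, or 11.8% if 6 counts stand for 1 fragment, against 1.11% or 2.72% for Slc7a1.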

Other observations

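A few carriers and related genes outside the naming rule were picked after their values were seen. Slc38a7 and Slc38a9, carriers of the lysosomal membrane, were lower in every adPERK-labelled library than in any control, at 24.4 ± 1.53 against 21.7 ± 0.953 CPM and 8.33 ± 0.476 against 7.09 ± 0.142 CPM (SD, n = 3; edgeR adjusted p = 0.374 and 0.415), a separation found downward for 8.54% of tested entries. Gss, the glutathione synthetase, was 36.4 ± 0.514 CPM in control and 43.5 ± 2.32 CPM in adPERK-labelled libraries (edgeR adjusted p = 0.0728), and DESeq2 called it. Sesn3, a relative of the leucine sensor Sesn2, was 36.6 ± 0.102 and 32.4 ± 1.29 CPM (edgeR adjusted p = 0.19). Gatsl2, also named Castor2, was 7.65 ± 0.856 and 5.70 ± 0.228 CPM (edgeR adjusted p = 0.219). Sesn3 and Gatsl2 were the lower genes of the mTORC1 list with an unadjusted p under 0.05, and their groups did not overlap. None of these genes passed the edgeR test.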
